A study of Mus musculus with 6 samples.

Results

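The machinery that segregates chromosomes, as 55 genes, was followed in C2C12 cells, a mouse myoblast line, with and without overexpression of the homeobox transcription factor Msx1. The genes are named subunits and regulators of the kinetochore, the spindle checkpoint, the mitotic spindle, the cytokinesis machinery and condensin, listed by complex; the list was drawn up with earlier results of these data known. All 55 were found among the 24809 genes of the deposited table, as 99 RefSeq transcripts whose FPKM (fragment counts scaled by transcript length and by library size) were summed per gene.

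Both groups are C2C12 cells labelled as myoblasts. The control group (n = 3) has the genotype label control, and its columns in the table are headed as vector. The other group (n = 3) has the genotype label Msx1 overexpression. The labels do not say how Msx1 was introduced, whether the cells were a selected pool or 1 clone, at what stage and density they were harvested, or whether replicates were separate cultures. The p-values therefore cover only the variation among these libraries, possibly technical, and stage or density cannot be told apart from Msx1.

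Msx1 itself measured 7.99, 7.13 and 7.54 FPKM in control replicates 1 to 3, against 1004, 944 and 912 FPKM in the overexpressing replicates. The groups were far apart and matched their labels (126-fold, exact two-sided permutation p = 0.1, the smallest that 3 against 3 libraries can give). Total FPKM per library was 425939 ± 16089 (SD, n = 3) in control and 394557 ± 6294 (SD, n = 3) in Msx1 cells. Depth, estimated roughly from the steps of low values, lay between 18.4 and 24.15 M fragments. The myoblast markers Myod1 (23.3 and 21.4 FPKM, control and Msx1 means) and Des (140.1 and 116 FPKM) were present in both groups. Of the 5 myoblast markers Myf5 (9.01 and 1.64 FPKM) and Des fell, Pax7 rose and 2 were not called. The defining markers of leukocytes and epithelium, Ptprc, Cd3e, Adgre1 and Epcam, were listed at 0 in all 6 libraries. Of the other epithelial markers, Cdh1 was at 0.0825 and 0.216 FPKM, Krt8 at 0.00765 and 0.0469 FPKM, and Krt18 was above 0 in 1 Msx1 library. Cd68 was at 3.00 and 1.05 FPKM, and the summed endothelial markers reached at most 0.878 FPKM.

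The kinetochore is the protein assembly on each centromere to which spindle microtubules attach. Its base contains the histone variant CENP-A and a set of constitutive proteins, and its outer layer holds the microtubule-binding NDC80 complex and the checkpoint proteins that delay anaphase until every chromosome is attached. Condensin folds the chromosomes, and the anaphase-promoting complex then releases separase so that sister chromatids part. Many of these genes are transcribed late in the cell cycle and are silenced in resting cells by the DREAM complex, so in C2C12 cultures their RNA is a familiar readout of proliferation, which ends when myoblasts differentiate.

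The machinery was lower in Msx1 cells almost as a whole. Of the 55 genes, 53 fell, 1 rose (Zwint) and 1, Bub3, was not called, by limma on log2(FPKM + 1) with Benjamini-Hochberg adjustment over 12371 tested genes at 0.05. Among all genes tested 54.4% were called, 32.4% lower and 22% higher. All 55 members passed the filter of a mean of 0.5 FPKM, and control and Msx1 libraries did not overlap for any of them, against 62.3% of all genes. In 40 of 55 members the fall was 1 or more on the log2 scale, beside 3.35% of all genes tested. The median change of the members was -1.24, beside -0.07 for all tested genes.

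The summed level of the 55 genes was 1104, 954.4 and 1014 FPKM in the control libraries and 468.8, 449.1 and 450.6 FPKM in the Msx1 libraries. As a share of all FPKM this was 0.24% ± 0.00864 in control and 0.116% ± 0.00384 in Msx1 cells (SD, n = 3 each). Every Msx1 library was below every control library, and the 3 Msx1 libraries were close to each other. In bulk RNA, fewer cells in the late cell cycle and less RNA per cell cannot be told apart. Control replicate 1 had the highest value for 31 of the 55 genes, with a median deviation of 0.06 from its group on the log2 scale.

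**Figure D1:**
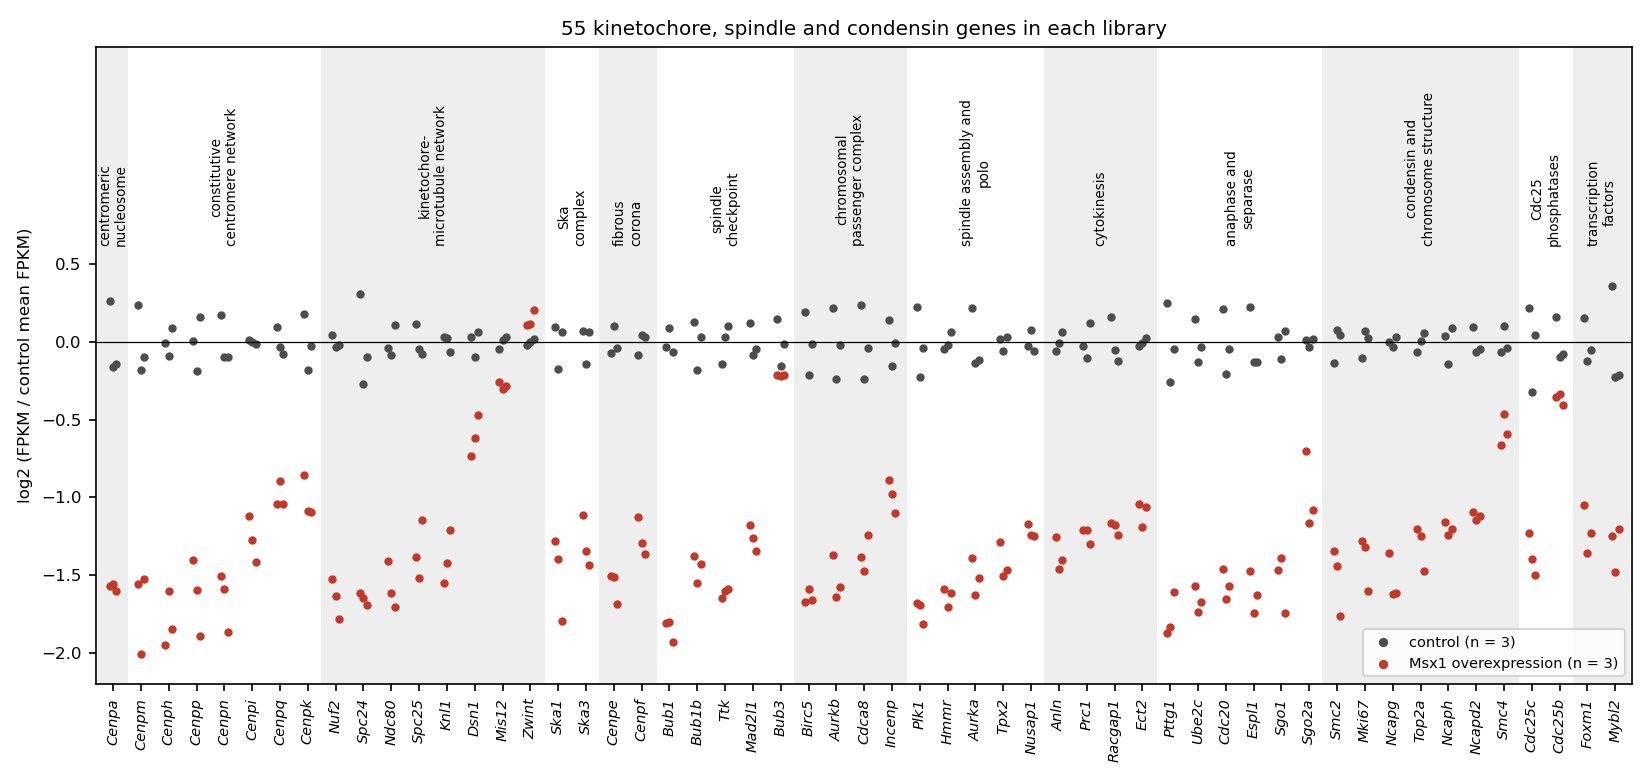
Level of each of the 55 genes in each library, as log2 of FPKM over the control mean (vertical axis), with genes grouped by role (shaded bands) and sorted by change. Grey points are the 3 control libraries and red points the 3 Msx1 libraries. The red points lie below the grey ones for all genes but Zwint, and nearest to them for Bub3, Mis12, Cdc25b, Dsn1 and Smc4.

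Among the 53 genes that fell, the control mean was 1.21 to 3.60 times the Msx1 mean, with a median of 2.63, and adjusted p lay between 7.42e-07 and 0.00624. In 46 members the control mean was at least 2 times the Msx1 mean, and in 14 at least 3 times. Levels in control cells spanned 2.52 FPKM (Cenpk) to 57.6 FPKM (Ube2c). Ube2c, Cdc20, Racgap1, Birc5, Pttg1, Zwint, Top2a and Bub3 stood highest in control cells, in that order of means. In Msx1 cells Zwint and Bub3 had become the 2 most abundant members.

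Promoters of genes of this kind often carry a cell cycle genes homology region (CHR), an element that recruits the MuvB core of the DREAM and B-MYB complexes, with CCAAT boxes, bound by NF-Y, upstream. The RefSeq promoter table of GRCm38.p6, with 250 bases before and 50 after each start that it lists, held 47 of the 55 members. It was searched on both strands for CCAAT and for the CHR letters TTTGAA or TTCGAA. At least 1 CHR match was present in 30 of 47 members (63.8%), against 21.7% of the 27025 genes in the table. CCAAT was present in 34 (72.3%) against 41.1%, and both motifs in 26 (55.3%) against 8.61%. A CCAAT and a CHR match shared bases in 1 of 53 promoter entries of members, TTCGAA reads the same on both strands, and a match of these letters is a description and not a site.

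The stretches below show the arrangement in 4 genes whose CHR match lies just upstream of the start listed with the promoter. They run from 100 to 4 bases before the start, 5′ to 3′ on the gene's strand, with CCAAT and CHR matches on either strand in capitals. The genes encode the ubiquitin-conjugating enzyme Ube2c, the anaphase activator Cdc20, separase (Espl1) and topoisomerase Top2a, and their positions in GRCm38.p6 are chr2:164769829-164769925 (plus strand), chr4:118437347-118437443 (minus), chr15:102296193-102296289 (plus) and chr11:99024193-99024289 (minus). The annotated span of Espl1 begins at 102296254, within its stretch and upstream of its CHR match.
Ube2c: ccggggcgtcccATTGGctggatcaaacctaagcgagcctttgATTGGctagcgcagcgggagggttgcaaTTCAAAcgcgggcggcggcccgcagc
Cdc20: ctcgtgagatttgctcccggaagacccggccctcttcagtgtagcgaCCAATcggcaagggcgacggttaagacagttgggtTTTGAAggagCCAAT
Espl1: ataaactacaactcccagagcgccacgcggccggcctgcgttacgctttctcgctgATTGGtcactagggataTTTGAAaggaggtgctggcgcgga
Top2a: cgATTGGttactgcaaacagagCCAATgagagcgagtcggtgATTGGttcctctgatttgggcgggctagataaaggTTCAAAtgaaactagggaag

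In other members the match lies at or just after the listed start. For Aurka the annotated span reaches further out, to 172370886. The 24 bases around it are given for 6 of them, which stand for the centromere, the checkpoint and the spindle. They lie at chr5:30666893-30666916 (plus), chr2:127831831-127831854 (minus), chr9:83834687-83834710 (plus), chr11:40733415-40733438 (minus), chr7:122159456-122159479 (plus) and chr2:172370524-172370547 (minus), in the order printed.
Cenpa: gggtgatttTTTGAActgctggcg
Bub1: cgcggggaaTTCGAAtcgccggcg
Ttk: cggggaaatTTCAAAcgtgtttcc
Hmmr: tgaggtaaaTTTGAAttcaggcga
Plk1: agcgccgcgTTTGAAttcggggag
Aurka: aggagaaccTTTGAAttgtaacgg

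The next stretches belong to the members that did not fall. Zwint (chr10:72654746-72654842, plus strand) has a CCAAT box in the same window and no CHR match between 250 bases before and 50 after its start. Bub3 (chr7:131560318-131560347, plus strand) has both motifs within 30 bases.
Zwint: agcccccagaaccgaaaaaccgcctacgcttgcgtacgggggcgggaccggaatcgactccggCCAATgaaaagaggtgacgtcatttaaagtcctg
Bub3: ccgttggcgTTCAAAatcagCCAATgatag

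The motif classes overlapped in their change. The 26 members with both motifs had a median change of -1.28, the 4 with CHR alone -1.16, the 8 with CCAAT alone -0.77 and the 9 with neither -1.17. Pttg1, Birc5 and Nuf2, with log2 changes of -1.69, -1.57 and -1.49, had neither motif in the window, while Bub3 and Cdc25b had both. The Pttg1 window (chr11:43425932-43426231, minus strand) lies inside the annotated gene, which reaches 43427463, so its outermost start was not searched. The same holds for Mybl2, which had neither motif, and for Cdc25b, Aurka, Ncapd2, Sgo1, Cenpm and Ect2, which had both. Among 775 other tested genes with both motifs, 39% were lower and 6.58% had a change of -1 or less, beside 32.4% and 2.82% of the 9685 other tested genes with a promoter entry. These shares are descriptions without a test.

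**Figure D2:**
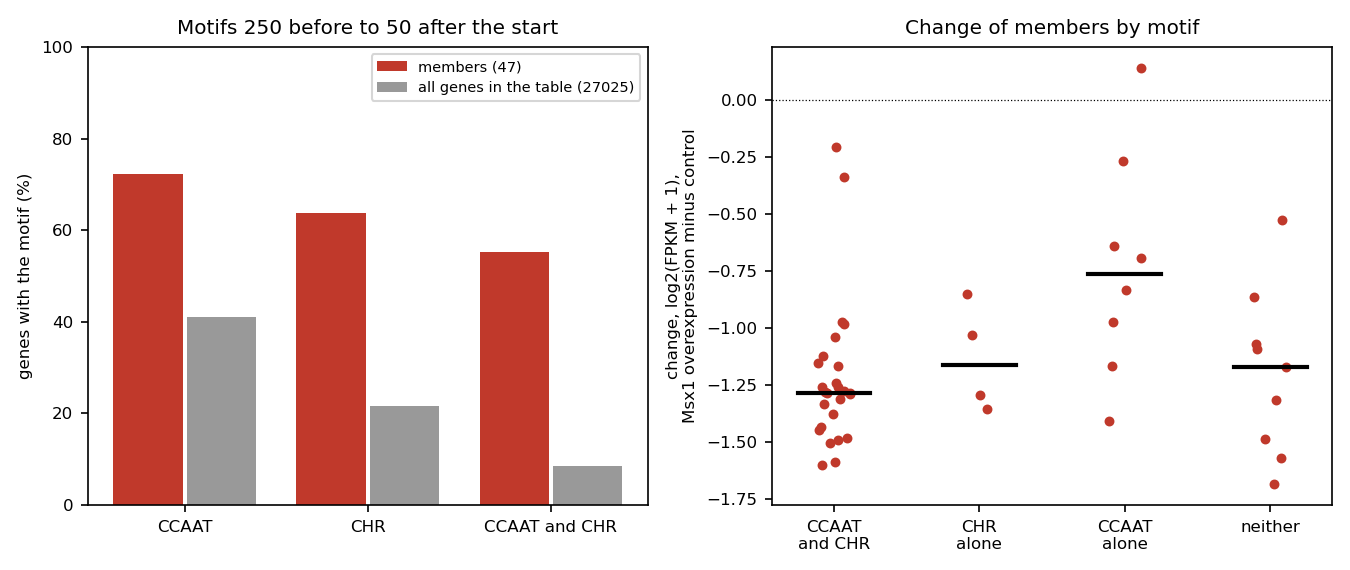
Left, share of genes with each motif between 250 bases before and 50 after the start, for 47 members (red) and all 27025 genes in the promoter table (grey). Right, change of each member on the log2(FPKM + 1) scale by motif class, with the median as a black bar; both motifs occur in 55.3% of members and 8.61% of all genes, and the classes overlap in their change.

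At the centromere, Cenpa encodes the histone H3 variant that marks the site of the kinetochore. It was at 41.1, 30.6 and 31.0 FPKM in the control libraries and at 11.5, 11.6 and 11.3 FPKM in the 3 with Msx1. The groups were well separated, with control replicate 1 above the other two, and Cenpa fell by 1.49 on the log2 scale (SE 0.11, adjusted p = 1.37e-05 by limma). All 7 listed genes of the constitutive centromere network, the proteins that bind CENP-A nucleosomes throughout the cell cycle, fell as well, with a median of -1.29. Cenpm had the highest level and the largest fall on the log2(FPKM + 1) scale, from 17.4, 13.0 and 13.8 FPKM to 5.01, 3.66 and 5.13 FPKM (log2 change -1.49, SE 0.14, adjusted p = 5.05e-05). By ratio of means Cenph fell further (3.47 against 3.21 for Cenpm), from 7.07 ± 0.439 to 2.04 ± 0.255 FPKM (SD, n = 3 each), and Cenpn, Cenpp, Cenpi and Cenpq had log2 changes of -1.29, -1.32, -0.98 and -0.84. Cenpk had the smallest change on this scale, which understates low genes, from 2.86, 2.23 and 2.48 FPKM to 1.39, 1.19 and 1.18 FPKM (log2 change -0.64, SE 0.09, adjusted p = 5.18e-04). By ratio of means Cenpk fell 2.01-fold and Cenpq 1.99-fold. The Msx1 libraries of Cenpk all lay below its control libraries, but reads were divided unevenly among its 3 transcripts, and with the most abundant transcript alone adjusted p was 0.149 (limma). Subunits of this network outside the list moved less in part. Their log2 changes ran from 0.008 (Cenpx, not called) and -0.25 (Cenpc1) to -0.98 (Cenps). By ratio of means Cenpu, a low gene, fell further than Cenps (3.16 against 2.30).

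The outer kinetochore showed the widest range of any role. The 4 subunits of the NDC80 complex, the rod that grips microtubule ends, moved together. Nuf2 was at 18, 17.1 and 17.2 FPKM in control and at 6.06, 5.61 and 5.07 FPKM in Msx1 libraries (log2 change -1.49, SE 0.07, adjusted p = 1.33e-06). Spc24 (-1.48), Ndc80 (-1.36) and Spc25 (-1.24) fell by similar amounts, and in Msx1 cells the 4 subunits stood between 3.81 (Ndc80) and 7.83 FPKM (Spc25). Knl1, the scaffold that carries the Bub proteins, fell from 2.57 ± 0.0931 to 0.982 ± 0.118 FPKM (SD, n = 3 each).

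The MIS12 complex joins NDC80 to the inner kinetochore, and its 2 listed genes, Dsn1 and Mis12, had changes nearer to 0. Dsn1 went from 8.15, 7.45 and 8.33 FPKM to 4.801, 5.19 and 5.75 FPKM (log2 change -0.52, SE 0.08, adjusted p = 7.42e-04). Mis12 went from 18.3, 19.0 and 19.2 FPKM to 15.8, 15.3 and 15.4 FPKM (log2 change -0.26, SE 0.05, adjusted p = 0.00249). Both genes were lower in every Msx1 library than in any control library. The lowest control and the highest Msx1 library were at 7.45 and 5.75 FPKM for Dsn1 and at 18.3 and 15.8 FPKM for Mis12. Per length, Mis12 RNA was 2.37 ± 0.16 times that of Dsn1 in control and 2.97 ± 0.299 times in Msx1 cells (SD, n = 3 each). With the libraries set to equal totals without Msx1, adjusted p for Mis12 was 0.0609 (limma, log2 change -0.16). The 2 MIS12 complex genes outside the list, Nsl1 and Pmf1, were at 41.9% and 63.6% of their control means.

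Zwint, a KNL1-binding protein of the outer kinetochore, was the only member to rise. It was at 44.6, 45.1 and 45.8 FPKM in control and at 48.8, 49.0 and 52.1 FPKM in Msx1 libraries (log2 change 0.14, SE 0.05, adjusted p = 0.037). The rise was small and the groups did not overlap. The call was lost when control replicate 2 (adjusted p = 0.0643), control replicate 3 (0.0735) or Msx1 replicate 1 (0.0716), 2 (0.0808) or 3 (0.13) was left out, and the log2 change then ranged from 0.11 to 0.16 (limma). Over all alternative settings the adjusted p of Zwint ranged from 0.00385 to 0.13 (limma). Per length, Zwint RNA was 17.6 ± 0.885 times that of its partner Knl1 in control and 51.3 ± 4.39 times in Msx1 cells (SD, n = 3 each). Of its 3 transcripts, NM_001293683 rose from 30.7 ± 3.26 to 39.2 ± 2.14 FPKM (SD, n = 3 each; limma adjusted p = 0.0264 over 17764 transcripts). NM_001293684 was at 10.2 and 7.48 FPKM and NM_025635 at 4.31 and 3.29 FPKM, control and Msx1 means, and neither was called.

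The Ska complex holds NDC80 on shrinking microtubules, and both of its listed genes fell. Ska1 went from 4.74, 3.92 and 4.62 FPKM to 1.82, 1.68 and 1.27 FPKM (log2 change -1.07, SE 0.10, adjusted p = 7.09e-05). Ska3 went from 6.56, 5.67 and 6.53 FPKM to 2.89, 2.46 and 2.31 FPKM (log2 change -1.03). The corona proteins Cenpe, a kinesin that carries chromosomes to the spindle equator, and Cenpf were also lower. Cenpe fell from 4.90, 5.53 and 5.02 FPKM to 1.81, 1.81 and 1.60 FPKM, and Cenpf from 4.99, 5.47 and 5.42 FPKM to 2.42, 2.16 and 2.06 FPKM (log2 changes -1.17 and -0.97). Control and Msx1 libraries were clearly apart for all 4 genes.

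**Figure D3:**
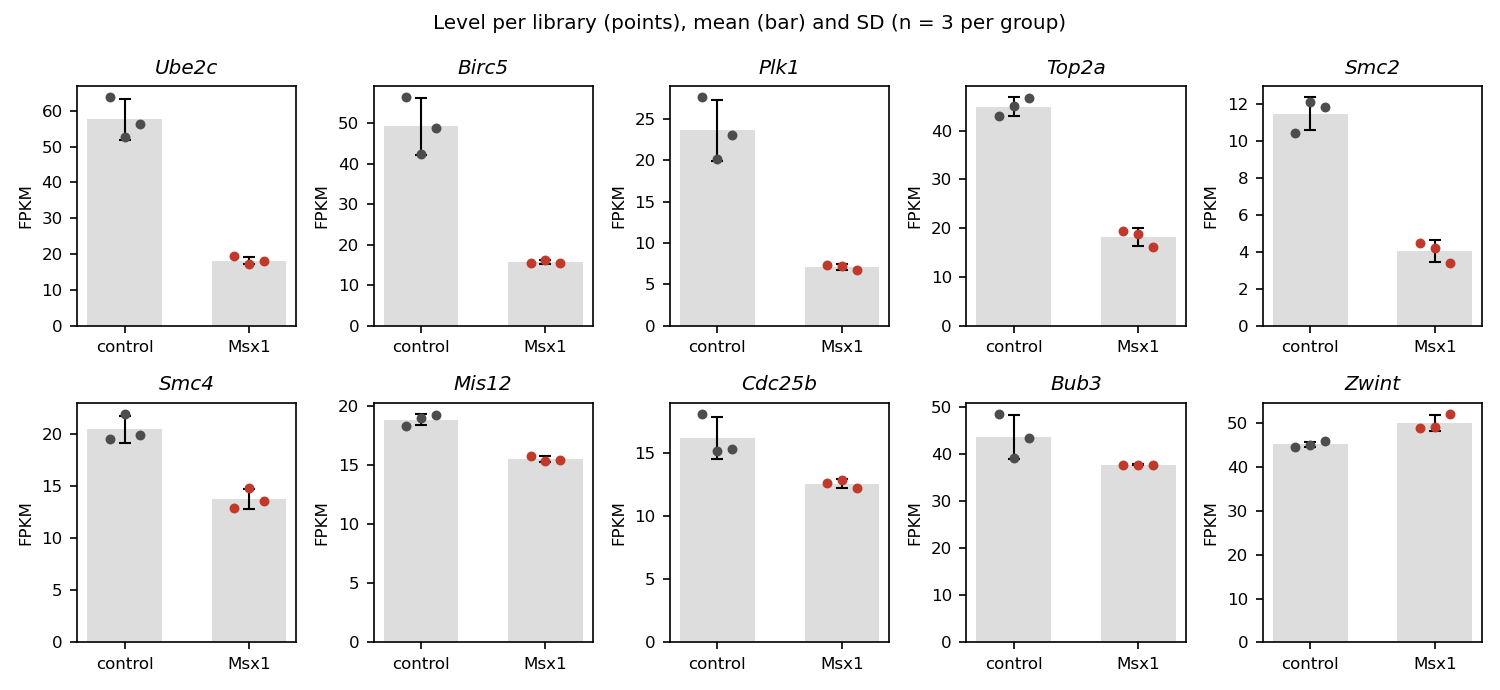
FPKM of 10 members in each library (points), with group means (bars from 0) and SD (n = 3 per group). Ube2c, Birc5, Plk1, Top2a and Smc2 were at 40.5% of control or less, while Smc4, Mis12, Cdc25b and Bub3 moved less and Zwint was slightly higher in Msx1 cells.

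Of the 5 spindle checkpoint genes 4 fell. Bub1, a kinase recruited by KNL1, was at 6.74, 7.32 and 6.60 FPKM in control and at 1.96, 1.97 and 1.81 FPKM in Msx1 libraries. These are tight groups, and the ratio of means, 3.60, was the largest of all members (log2 change -1.44, SE 0.07, adjusted p = 1.43e-06). Ttk, the kinase that starts checkpoint signalling, fell from 7.31 ± 0.623 to 2.39 ± 0.051 FPKM, Bub1b, encoding BUBR1, from 20.0 ± 2.16 to 7.32 ± 0.448 FPKM, and Mad2l1, encoding the MAD2 protein that is loaded onto CDC20, from 21.7 ± 1.68 to 9.07 ± 0.522 FPKM (SD, n = 3 each). Bub3, the WD-repeat partner of BUB1 and BUBR1, was at 48.5, 39.2 and 43.4 FPKM in control and at 37.7, 37.6 and 37.8 FPKM in Msx1 libraries. Its Msx1 libraries were nearly equal and just below the lowest control library (log2 change -0.20, 95% interval -0.38 to -0.03, adjusted p = 0.0514). Without control replicate 2 the call was reached (log2 change -0.28, adjusted p = 0.00778, limma), with sample weights also (adjusted p = 0.00208). Over all alternative settings the adjusted p of Bub3 ranged from 0.00208 to 0.228 (limma). Per length, Bub3 RNA was 6.38 ± 0.941 times that of Bub1 in control and 19.7 ± 1.03 times in Msx1 cells (SD, n = 3 each).

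The 4 genes of the chromosomal passenger complex, which corrects faulty attachments and later directs cytokinesis, all fell. Birc5, encoding survivin, had the highest level and the strongest fall, from 56.3, 42.3 and 48.8 FPKM to 15.4, 16.3 and 15.5 FPKM (log2 change -1.57, SE 0.10, adjusted p = 5.28e-06). Control libraries varied by more than the Msx1 libraries did, and none came near them. The kinase gene Aurkb (log2 change -1.38) and the borealin gene Cdca8 (-1.26) followed. Incenp, the scaffold of the complex, moved least, from 21.8, 17.7 and 19.6 FPKM to 10.6, 10.01 and 9.18 FPKM (log2 change -0.92, SE 0.08). The ratio of Birc5 to Aurkb, per length, was 2.67 ± 0.0428 in control and 2.48 ± 0.294 in Msx1 cells (SD, n = 3 each), and the groups overlapped.

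Spindle assembly genes fell without exception among the 5 listed, each by at least 1 on the log2 scale. Plk1, the polo kinase needed from mitotic entry to cytokinesis, fell from 27.6, 20.2 and 23.0 FPKM to 7.35, 7.28 and 6.70 FPKM (log2 change -1.59, SE 0.11, adjusted p = 8.43e-06). Tpx2, which activates Aurora A, fell from 22.7, 21.4 and 22.9 FPKM to 9.14, 7.85 and 8.08 FPKM, and Aurka, encoding that kinase, by 1.38 on the log2 scale. Nusap1, a microtubule-bundling protein, moved least, from 10.8, 11.6 and 10.6 FPKM to 4.88, 4.64 and 4.64 FPKM (log2 change -1.07). The hyaluronan receptor and spindle protein gene Hmmr had the smallest adjusted p of all members, 7.42e-07 (limma).

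The 4 cytokinesis genes kept to a narrow band of log2 changes, from -0.98 to -1.30. Anln, the anillin that organizes the contractile ring, fell from 26.9, 27.8 and 29.3 FPKM to 11.7, 10.2 and 10.6 FPKM (SE 0.07, adjusted p = 2.05e-06). Racgap1, a subunit of centralspindlin, was the most abundant, at 56.2, 48.4 and 46.2 FPKM in control and 22.4, 22.2 and 21.2 FPKM in Msx1 libraries. Ect2, the exchange factor that activates RhoA at the midzone, moved least, from 12.4, 12.6 and 12.9 FPKM to 6.16, 5.54 and 6.06 FPKM. Prc1, which bundles midzone microtubules, fell from 26.4 ± 2.10 to 11.2 ± 0.413 FPKM (SD, n = 3 each).

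The 6 genes of anaphase and separase all fell. Pttg1, encoding securin, the inhibitor of separase, had the largest change of all members on the log2(FPKM + 1) scale, from 56.4, 39.6 and 46.0 FPKM to 12.9, 13.3 and 15.5 FPKM (-1.69, SE 0.13, adjusted p = 1.66e-05). Ube2c fell from 63.7, 52.6 and 56.4 FPKM to 19.4, 17.3 and 18 FPKM (log2 change -1.60, SE 0.08, adjusted p = 1.74e-06), and Cdc20 from 55.7 ± 8.24 to 18.9 ± 1.26 FPKM (SD, n = 3 each). The lowest control library of each of the 3 genes was more than 2 times the highest Msx1 library. Espl1, separase itself, fell from 7.18 ± 1.05 to 2.35 ± 0.219 FPKM. Of the shugoshins, which protect centromeric cohesin, Sgo1 fell by 1.12 and Sgo2a by 0.69 on the log2 scale. Sgo2a was at 3.51, 3.40 and 3.53 FPKM in control and at 2.14, 1.55 and 1.65 FPKM in Msx1 libraries.

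Condensin subunits fell unequally. SMC2 and SMC4 form the obligate ATPase pair shared by condensins I and II. Smc2 fell from 10.5, 12.1 and 11.9 FPKM to 4.51, 4.22 and 3.38 FPKM (log2 change -1.31, SE 0.10, adjusted p = 1.78e-05). Smc4 fell from 19.5, 22.0 and 19.9 FPKM to 12.9, 14.8 and 13.6 FPKM (log2 change -0.54, SE 0.07, adjusted p = 3.74e-04). The 95% intervals of the changes, -1.54 to -1.08 and -0.70 to -0.38, did not touch. The ratio of Smc4 to Smc2, per length, was 1.87, 1.81 and 1.68 in control and 2.86, 3.51 and 4.02 in Msx1 libraries. It was higher in every Msx1 library, and it was singled out after the values were seen. The condensin I subunits Ncapg, Ncaph and Ncapd2 had log2 changes of -1.28, -1.09 and -1.04.

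Top2a, the topoisomerase that untangles sister chromatids, fell from 42.9, 45.0 and 46.7 FPKM to 19.5, 18.9 and 16.2 FPKM (log2 change -1.26, SE 0.08, adjusted p = 4.95e-06). Mki67, which coats mitotic chromosomes and is the usual proliferation marker, fell from 18.5 ± 1.17 to 7.05 ± 0.829 FPKM (SD, n = 3 each). Top2a and Mki67 thus stood at 40.5% and 38% of control.

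The phosphatase genes differed. Cdc25c, which activates CDK1 at mitotic entry, fell from 6.501, 4.47 and 5.77 FPKM to 2.38, 2.12 and 1.97 FPKM (log2 change -1.05, SE 0.12, adjusted p = 1.76e-04). Cdc25b, which acts earlier at the centrosome, fell from 18.1, 15.1 and 15.3 FPKM to 12.7, 12.9 and 12.2 FPKM (log2 change -0.34, SE 0.08, adjusted p = 0.00624). Msx1 libraries were lower throughout in both genes. Their paralog Cdc25a, a regulator of S phase entry, was at 5.54 ± 0.174 and 5.33 ± 0.288 FPKM (SD, n = 3 each) and was not called, with a 95% interval of -0.19 to 0.10.

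The 2 listed genes for transcription factors that activate genes of this kind were lower too. Their part in the fall of the other members was not tested. Foxm1 was at 18.9, 15.6 and 16.4 FPKM in control and at 8.21, 6.61 and 7.24 FPKM in Msx1 libraries (log2 change -1.11, SE 0.09, adjusted p = 3.45e-05). Mybl2, encoding B-MYB, was at 4.22, 2.81 and 2.83 FPKM in control and at 1.38, 1.18 and 1.43 FPKM in Msx1 libraries (log2 change -0.87, SE 0.13, adjusted p = 7.78e-04). Control replicate 1 stood above the other two control libraries in both genes.

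By transcript, 26 of the 55 members had more than 1 RefSeq entry. Of the 85 member transcripts tested, 67 were lower, 1 was higher and 17 were not called, against 18.6% of 17764 tested transcripts called lower. In Cenpa the transcripts NM_001302129 and NM_007681 fell from 19.1 ± 4.58 to 7.08 ± 0.962 and from 10.2 ± 1.42 to 3.05 ± 0.173 FPKM (SD, n = 3 each). For Racgap1 and Prc1 the division among transcripts varied between replicates. Prc1 transcript NM_145150 was at 7.04, 5.54 and 0.384 FPKM in the Msx1 libraries while the gene's sum was at 11.4, 11.4 and 10.7 FPKM. For these genes the sums were steadier than their parts. The annotated spans of 24 members, introns included, overlap another gene, such as Mis12 with Derl2, Cdc20 with Elovl1 and Cenpk with Ppwd1. The strand used in counting is not stated and overlap of exons was not examined, so reads shared with such partners could not be judged.

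**Figure D4:**
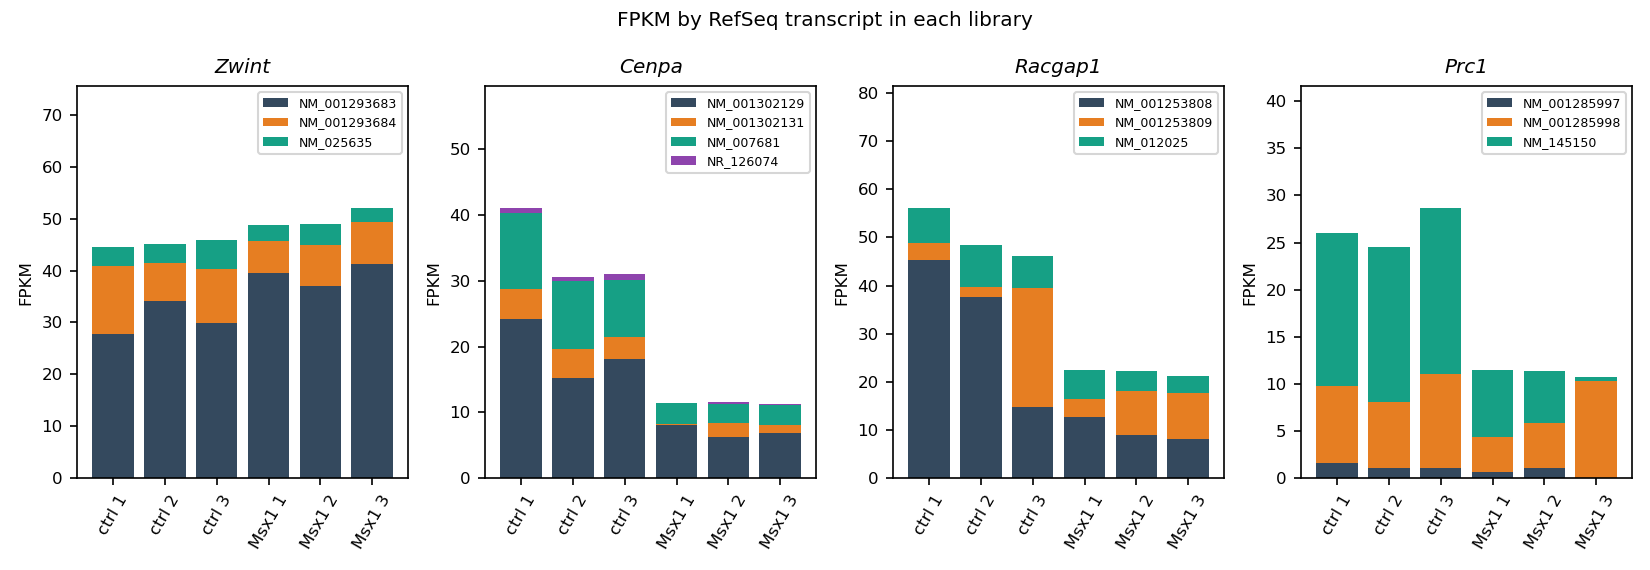
FPKM by RefSeq transcript (stacked colours) of Zwint, Cenpa, Racgap1 and Prc1 in each library. Transcripts above 0.5 FPKM in at least 1 library are drawn; the split of Racgap1 and Prc1 shifts between replicates more than their totals, and the Cenpa total is highest in control replicate 1.

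Other genes of the same machinery were followed as lists, to be read against the 32.4% of all genes called lower and 22% called higher. Of 22 other centromere and kinetochore genes 19 fell, 0 rose and 3 were not called, with a median change of -0.63. Spdl1, which brings dynein to kinetochores, fell most, from 6.04 ± 0.218 to 1.70 ± 0.16 FPKM (SD, n = 3 each; log2 change -1.39, adjusted p = 2.23e-06 by limma). The DNA-binding Cenpb (103 and 105 FPKM), Cenpx (23.3 and 23.4 FPKM) and Zw10 (10.1 and 9.33 FPKM; control and Msx1 means) were the 3 not called. Of 6 other checkpoint genes 3 fell, 0 rose and 3 were not called. The called share was near the 54.4% of all genes called in either direction, with 32.4% called lower. The kinase gene Nek2 fell by 1.38 on the log2 scale, while Mad1l1, the partner of MAD2, was at 13.1 ± 1.16 and 13.4 ± 0.688 FPKM (SD, n = 3 each).

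Of 22 spindle and centrosome genes 15 fell, 2 rose and 5 were not called, with a median of -0.44. Ckap2, a spindle microtubule protein, had the largest fall on the log2(FPKM + 1) scale (-1.33, SE 0.07). Haus4, a subunit of the augmin complex, rose from 16.1 ± 1.49 to 22.2 ± 0.628 FPKM (SD, n = 3 each; log2 change 0.44, adjusted p = 0.00109), and Numa1, which anchors spindle poles, rose by 0.38 on the log2 scale. Of the other augmin genes, Haus1, Haus2, Haus3, Haus5, Haus6 and Haus8 fell, to between 56.9% (Haus5) and 76.9% (Haus8) of control, and Haus7 (18.5 and 18.1 FPKM) was not called.

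Of 16 condensin II and cohesin genes 7 fell, 0 rose and 9 were not called, with a median of -0.21. The 3 condensin II subunits Ncapg2 (log2 change -0.84), Ncapd3 (-0.48) and Ncaph2 (-0.23) all fell. The largest fall was in Cdca5, encoding sororin, the S phase cohesin stabilizer (-1.23, SE 0.09). The cohesin core gene Rad21 fell from 88.1 ± 4.28 to 72.6 ± 1.449 FPKM (SD, n = 3 each). Of 17 genes of the anaphase-promoting complex and its regulators 11 fell, 0 rose and 6 were not called, with a median of -0.21. Anapc15 fell most (log2 change -0.88, SE 0.10), and the scaffold subunit gene Anapc1 was at 27.7 ± 1.08 and 27.5 ± 0.526 FPKM (SD, n = 3 each). With equal totals without Msx1, 4 condensin II and cohesin genes and 7 anaphase-promoting complex genes were lower, beside 2807 of 12373 genes, so the first count is near the background.

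Of 6 paralogs of members 3 fell, 0 rose and 3 were not called, and 2 were called under each of the 3 other scalings. The called share was near the 54.4% of all genes called in either direction, with 32.4% called lower. The polo-like kinase gene Plk2 fell from 42.0 ± 2.24 to 20.7 ± 0.73 FPKM (SD, n = 3 each; log2 change -0.98, adjusted p = 4.36e-06 by limma). Top2b, the topoisomerase paralog that resting cells also express, was at 25.9, 33.8 and 30.9 FPKM in control and at 22.5, 26.3 and 21.7 FPKM in Msx1 libraries (log2 change -0.34, adjusted p = 0.0267 by limma). The groups overlapped.

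Genes of the DREAM and MuvB complexes, their partners and NF-Y moved both ways. Of 15 tested, 6 fell, 4 rose and 5 were not called, with a median of -0.15, shares near those over all genes. With equal totals without Msx1, 5 were lower and 6 higher. Lin9, a MuvB core subunit, fell from 2.73 ± 0.179 to 1.69 ± 0.227 FPKM (SD, n = 3 each; log2 change -0.47, adjusted p = 0.00207). Rbl2, encoding the pocket protein p130 of the DREAM complex in resting cells, rose from 28.4, 33.4 and 31.2 FPKM to 39.0, 40.1 and 38.6 FPKM (log2 change 0.33, SE 0.06, adjusted p = 0.00315). Rbl1, encoding p107, fell by 0.36 on the log2 scale. Nfya, the regulatory NF-Y subunit, rose most, from 15.5 ± 0.475 to 22.1 ± 0.184 FPKM (SD, n = 3 each; log2 change 0.49, adjusted p = 8.97e-05). Without Msx1 replicate 1, 2 genes of this list were called higher.

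Genes of the G1 to S transition were lower too. Of 26 tested, 23 fell, 0 rose and 3 were not called, with a median of -0.85 beside -1.24 for the 55 members. The difference between these lists was not tested. Rrm2, a ribonucleotide reductase subunit, had the largest fall on the log2(FPKM + 1) scale, from 116 ± 17.2 to 43.2 ± 2.54 FPKM (SD, n = 3 each; log2 change -1.40), while by ratio Ccne1, encoding cyclin E1, fell further, to 32.8% of control against 37.2%. Pcna, the replication clamp, fell by 0.44 on the log2 scale. E2f1 was at 13.8 ± 1.72 and 12.4 ± 0.457 FPKM (SD, n = 3 each) and was not called.

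Of 14 genes of cell cycle exit, 12 were tested, 4 rose, 2 fell and 6 were not called, a share near the 54.4% called over all genes. Gadd45a rose most, from 20.4 ± 2.04 to 131 ± 4.6005 FPKM (SD, n = 3 each). The CDK inhibitor genes Cdkn1b, encoding p27, and Cdkn1c, encoding p57, rose by 0.49 and 0.59 on the log2 scale, while Cdkn1a, encoding p21, was at 184 ± 12.01 and 175 ± 1.48 FPKM (SD, n = 3 each) and was not called. Ccng1 fell most (log2 change -1.44). Of 7 myotube markers 5 were tested and 4 rose, and their summed level was 8.77, 9.71 and 8.15 FPKM in control and 38.8, 36.3 and 40.7 FPKM in Msx1 libraries. Ckm, the muscle creatine kinase of myotubes, was below the filter in both groups (0.211 and 0.11 FPKM). The part of these genes in the fall of the mitotic set was not tested.

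**Figure D5:**
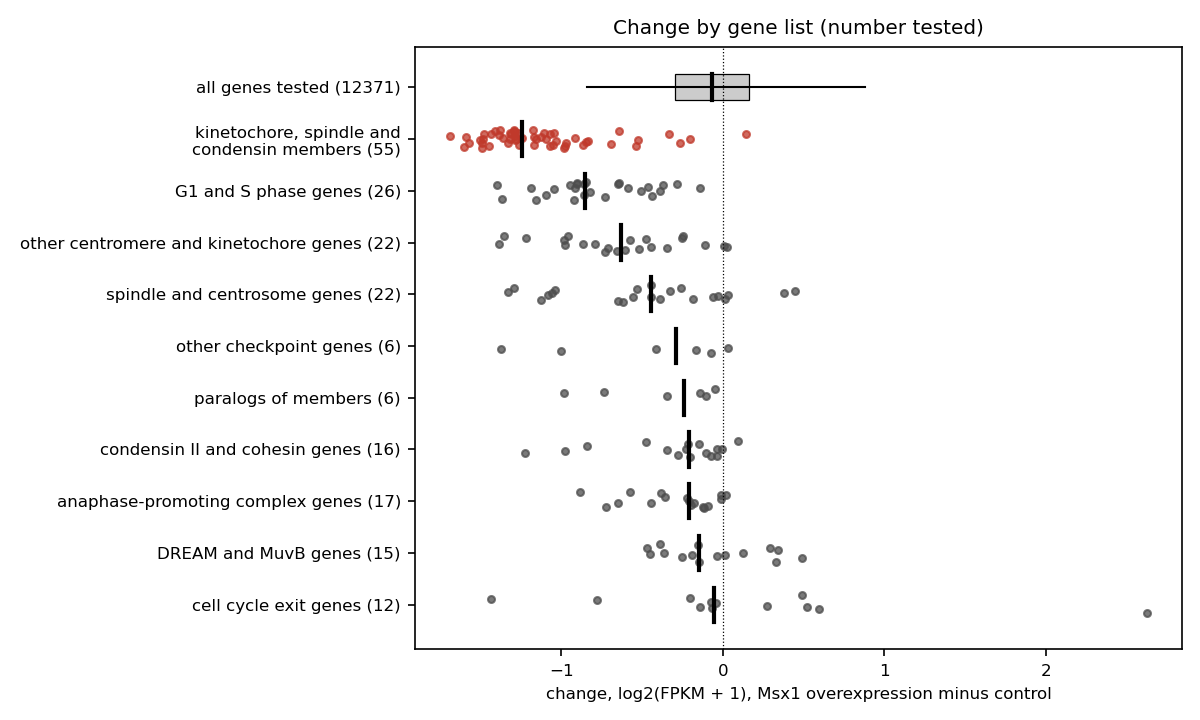
Change on the log2(FPKM + 1) scale of every tested gene in each list (points) with the list's median (black bar); the number tested is in brackets. For all 12371 tested genes the box spans the quartiles and the line the central 90%. The 55 members have a median of -1.24, the G1 and S phase genes -0.85 and the other centromere and kinetochore genes -0.63.

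The 5 genes outside the list named here were closest in pattern to the members' mean profile, by Euclidean distance of standardized log2 values over the 6 libraries among genes at a mean of at least 5 FPKM. They were Ndufs4, Pclaf, Echs1, Ccnb2 and Sardh, at distances of 0.142 to 0.151. Pclaf, a PCNA-binding protein, went from 22.6, 18.7 and 19.5 FPKM to 6.21, 5.35 and 5.34 FPKM. Ccnb2, the mitotic cyclin B2, went from 41.6, 36.0 and 38.03 FPKM to 12.7, 11.2 and 12.1 FPKM. Ndufs4, the nearest of all, Echs1 and Sardh are not genes of the lists above and stood at 63.3%, 41.4% and 63.5% of their control means. The measure does not use the size of the change, since each gene's values are standardized.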

How the data were processed

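Trizol RNA was sequenced from NEBNext Ultra libraries, per the labels' protocols. The authors deposited 1 table of FPKM per RefSeq transcript with 1 column per sample. Trimmomatic, HISAT2 and StringTie with GRCm38 (mm10) are named in the submitters' processing notes; their versions and roles are not stated there. Vector columns were matched to control samples by number. Symbols came from a RefSeq table of GRCm38.p6 (38193 of 38468 transcripts) and GENCODE (156), and FPKM were summed to 24809 genes. The test was limma 3.58.1 (R 4.3.3) with an intensity trend on log2(FPKM + 1), pseudocount 1, for genes averaging 0.5 FPKM or more, Benjamini-Hochberg adjusted; it was tested on simulated data. The scale understates changes of low genes. Folds are ratios of mean FPKM, and SE is the moderated standard error.

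FPKM are relative to each library. Scaling moved the balance of calls over all genes from 4014 lower and 2718 higher to 3154 and 3321 (median of ratios), 3614 and 3081 (quantile) or 2807 and 3503 (equal totals without Msx1). The division of reads among transcripts is an estimate, and 24 members overlap another annotated gene, so without strand those values carry added uncertainty. Depth was searched between 15 and 30 M fragments; 34.9% to 39.7% of low values lay within 0.1 of whole multiples, so whole reads were not recovered. Members, lists and tests were chosen with earlier results of these data known. Values per library are printed, for each role, for the most abundant member and those with the largest and smallest change, and for members that did not fall; each pathway list names its largest changes. Further genes were chosen after their values were seen.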

Additional observations from a re-analysis of the deposited data

How the results depend on the processing

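Over 16 alternatives (pseudocounts, filters, scalings, single transcripts, sample weights, a replicate block and each library left out), 51 to 54 of the 52 to 55 members called were lower, beside 53 of 54 with the settings used, and the median change ranged from -1.36 to -0.78. Calls over all genes ranged from 5581 to 8770, beside 6732. Leaving out single libraries gave 5581 to 7090 calls over all genes, 53 or 54 over the members and 88 to 106 over the pathway lists. Among members still tested, call changes were limited to Mis12, Cenpk, Zwint and Bub3, in the settings given above, and to the block. With the filter at a mean of 2 FPKM, Knl1 (mean 1.77 FPKM) and Cenpk (1.89 FPKM) were not tested, and 52 of 53 members were called. The replicate block gave 54 members called, 54 lower and 0 higher, 6747 genes and 99 pathway genes; Zwint lost its call (adjusted p = 0.0505) and Bub3 reached it (0.0452), both by limma. Same-numbered libraries correlated at 0.0553, 0.226 and 0.0366 in their deviations, and differently numbered ones at -0.204 to 0.133. With 3 libraries per group these values cannot settle whether the numbers pair the samples. With only the 100 bases before the start, 11 members had a CHR match (23.4%, against 7.18% of all genes) and 7 both motifs (14.9% against 1.36%); with 50 bases on either side, a window chosen after seeing the data, 27 had a CHR match (57.4% against 6.12%) and 16 both (34% against 1.01%). The first of these windows leaves out the bases after the start, where several CHR matches lie. With sample weights, 4 cell cycle exit genes were lower in place of 2. Fragment counts per gene were not recovered, so counting error per gene is not given.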
